A study of Mus musculus with 9 samples.

Results

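The serpins are a family of serine protease inhibitors and of related proteins that share their fold. On this mouse array 58 genes carried a symbol beginning with Serpin, on 59 of the 28853 probe sets, and 57 of these genes are reported here. They fell into 22 genes of clade a, 25 of clade b and 10 of clades c to i, and each gene was read on its brightest probe set, judged by the mean of the 9 arrays. For 54 of the 57, the transcript named on the array carried the same symbol in the RefSeq mouse gene table. For the other 3 that transcript was not found there. Serpinb9g alone had 2 probe sets.

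An inhibitory serpin exposes a reactive loop as bait. The protease cuts the loop, is dragged across the serpin while still bound to it, and is left as an inactive covalent complex that cell surface receptors of the LDL receptor family clear. Clade a members are mostly secreted, clade b members mostly stay in the cytosol or nucleus, and some relatives, Serpinf1 and Serpinh1 among them, do not inhibit proteases. Among the proteases that serpins hold in check are thrombin, the plasminogen activators and the granzymes.

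Cells of 3 groups were compared. The D10 cells were re-derived from bone marrow at day 10, and the D5 cells from bone marrow at day 5, after oGFP+ ESCs had been transplanted into mice. The ESC group was the embryonic stem cells themselves, derived from blastocysts 3.5 days old. All samples were labelled C57BL/6×Oct4/EGFP transgenic OG2 mice, in which an Oct4-driven EGFP marks pluripotent cells. The strain name that follows in brackets has other digits in every sample, with no reason given, so that a shared background is an assumption. For D10 and D5, marrow cells were sorted for GFP, and colonies were picked and expanded on feeder cells; ESC also grew on feeder cells, so that every RNA sample could hold feeder RNA. The series names 1 line for each time point, so the replicate arrays of a group measured the spread within a line and not between lines or mice. The sources used here do not give the strain of the recipient mice.

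Each group had 3 arrays. Values are the deposited log2 signals, on which a difference of 1 is a 2-fold change, and array medians lay between 4.45 and 4.53. A background level of 3.68 was set from 1397 probe sets for olfactory and vomeronasal receptors, genes that these cells should not express, as the 95th percentile of their means. D10 replicates 1 and 3 were nearly the same measurement: their difference had an SD of 0.0686 over bright probe sets, whereas each of the remaining 8 pairs of arrays of a group had one between 0.154 and 0.201. They were averaged and counted as 1 sample, so that D10 had n = 2 against n = 3 for D5 and n = 3 for ESC. Both contrasts with ESC share the ESC arrays and are not independent of each other.

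Most of the family was silent or close to it. The mean over the arrays was above the background level for 16 of 57 Serpin genes, against 63.99% of all probe sets. Those 16 were 4 of clade a, 5 of clade b and 7 of clades c to i, and 40 genes were at or under the level in every group. Among the genes at that level were Serpina1a to Serpina1d, which encode the alpha-1-antitrypsins of the liver, and Serpinc1, which encodes antithrombin. The sequences of the Serpina1, Serpina3, Serpinb6 and Serpinb9 copies are so alike that signal of 1 copy may be read on the probe set of another, and the copy named below is the one the array's annotation gives.

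In D10 against ESC, 7 of the 57 Serpin genes reported here rose and 0 fell (limma, adjusted p under 0.05 over all probe sets), which is 12.3% of the 57 rising beside 5.32% of all probe sets, and 0 falling beside 3.33%. At an unadjusted p under 0.05, 9 were higher and 1 was lower, beside 10.4% and 10.7% of all probe sets. The 7 genes were Serpine2, Serpina3m, Serpina3n, Serpinb9b, Serpinb9, Serpinh1 and Serpinf1, of which Serpinb9 stayed under the background level. Without ESC replicate 1, or without D10 replicate 2, 4 genes rose. By clade they were 2 of 22 genes of clade a, 2 of 25 of clade b and 3 of 10 of clades c to i. The median difference over the 57 genes was 0.02, against -0.02 over all probe sets. The clade medians were 0.02 for a, 0.09 for b and -0.06 for c to i.

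In D5 against ESC, 3 of the 57 rose and 0 fell, beside 2.36% of all probe sets that rose and 1.5% that fell. Those 3, Serpine2, Serpina3m and Serpina3n, are 5.26% of the 57 and were also among the 7 of D10. The median over the 57 genes was 0.01, against -0.01 over all probe sets. By limma at an unadjusted p under 0.05, 8 were higher and 0 were lower, beside 8.31% and 8.25% of all probe sets. In D10 against D5, 0 of the 57 rose and 0 fell by limma, beside 0.194% of all probe sets that rose and 0.0208% that fell. There, 3 were higher and 3 lower at an unadjusted p under 0.05, beside 5.58% and 4.17%. A looser count asks whether all arrays of a group lie beyond all arrays of another. By it 13 Serpin genes were higher and 6 lower in D10 than in ESC, beside 14.9% and 16.4% of all probe sets. In D5 against ESC 6 were higher and 2 lower, beside 10.7% and 11%, and in D10 against D5 5 were higher and 4 lower, beside 9.87% and 8.84%. Those 4 were Serpina1a, Serpina1b, Serpina1e and Serpina3m, at differences of -0.26, -0.60, -0.38 and -0.36, and none passed the limma threshold. Serpina1a and Serpina1b were under the background level in every group. All 4 are named after their values were seen. The mean of D5 lay between those of D10 and ESC for 25 of the 57 genes.

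Markers of other cells were read beside these results. All 18 fibroblast and feeder cell markers rose in D10 against ESC, with a median of 1.28, beside 5.32% of all probe sets. In D5 against ESC 11 of 18 rose, with a median of 0.65, beside 2.36%. In D10 against D5 3 rose and 0 fell, beside 0.194% of all probe sets that rose. They were Lox by 0.97, Pdgfra by 0.79 and Thy1 by 0.71 (limma adjusted p = 0.0110, 0.0358 and 0.0457), named after their values were seen. At an unadjusted p under 0.05, limma had 15 of the 18 markers higher and 0 lower in D10 against D5. The shares of all probe sets there were 5.58% and 4.17%. The D5 mean lay between those of D10 and ESC for 17 of the 18 markers. Their summed linear signal was 4446 to 4761 in D10, 3299 to 3562 in D5 and 2188 to 2392 in ESC, so the groups did not overlap. Of the 7 Serpin genes that rose in D10, 6 follow the same order of means, D10 over D5 over ESC, and Serpina3m does not. These 7 were picked because D10 lay over ESC, so only the place of D5 in that order was free to vary. All cultures grew on feeder cells, and in bulk RNA more cells of a type and more RNA per cell cannot be told apart. The part of feeder cells in these results was not tested.

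**Figure D1:**
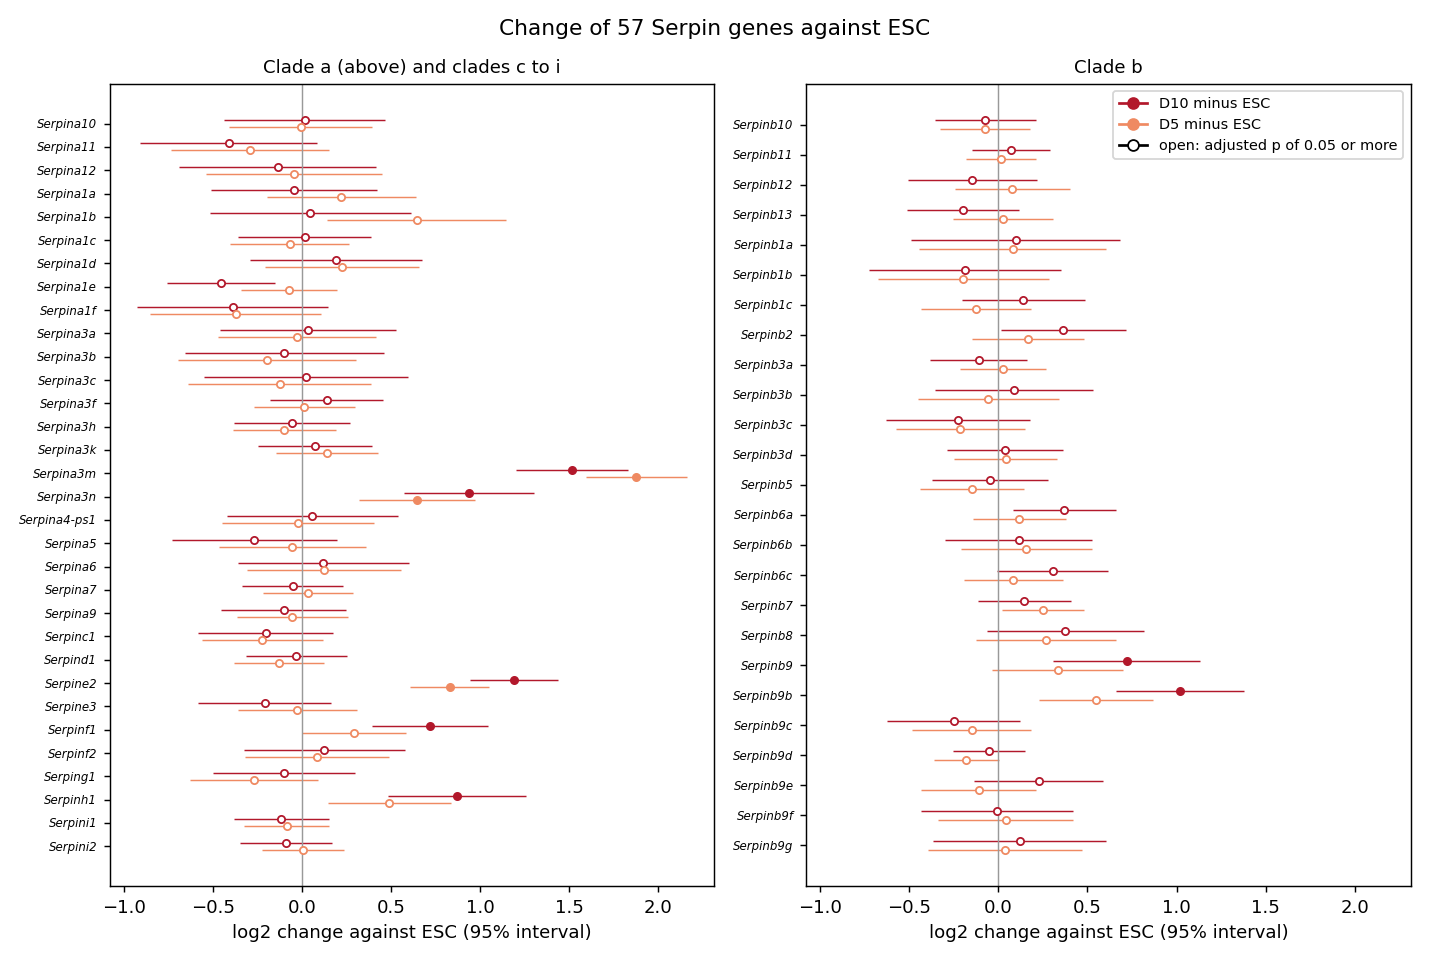
Difference in log2 signal of each of 57 Serpin genes for D10 minus ESC (dark) and D5 minus ESC (light), with 95% intervals from limma; filled points passed an adjusted p of 0.05. Most genes of each clade lie near 0, and the 7 filled points of D10 and the 3 of D5 are all on the positive side.

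Promoters of 5 of the genes that rose are shown here, beside those of 2 close relatives that did not pass the threshold. The bases come from RefSeq on GRCm38.p6, are the 100 just before the annotated start, and run 5′ to 3′ on the gene's own strand. Of the 7 genes that rose, 6 had an entry. The first 3 sequences are copies of the Serpinb9 cluster on chromosome 13, where Serpinb9 and Serpinb9b rose in D10 and Serpinb9g did not pass the threshold. Capitals mark the longest run of bases that Serpinb9 and Serpinb9b share, 13 in all, and Serpinb9g has none marked. Coordinates are chr13:33004441-33004540 for Serpinb9, chr13:33027314-33027413 for Serpinb9b and chr13:33484690-33484789 for Serpinb9g, all on the plus strand.
Serpinb9: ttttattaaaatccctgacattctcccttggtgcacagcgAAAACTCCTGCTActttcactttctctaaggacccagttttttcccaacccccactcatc
Serpinb9b: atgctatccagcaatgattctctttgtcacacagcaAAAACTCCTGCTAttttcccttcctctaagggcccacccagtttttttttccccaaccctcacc
Serpinb9g: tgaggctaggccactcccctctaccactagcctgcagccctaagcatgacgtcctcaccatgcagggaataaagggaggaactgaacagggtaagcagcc

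Aligned end to end over those 100 bases, Serpinb9b was 67.6% identical to Serpinb9, and 37.6% to 43.0% identical to Serpinb9c, Serpinb9d, Serpinb9e, Serpinb9f and Serpinb9g. Those 5 relatives did not pass the threshold in any comparison. The next pair is Serpina3n, which rose, and Serpina3c, which stayed under the background level. Their last 100 bases were 90.3% identical. Serpina3n was less like Serpina3b (72.4%), Serpina3f (62.0%) and Serpina3a (43.8%), which did not pass the threshold either. Capitals mark the bases of Serpina3n and Serpina3c that differ or have no partner in their alignment. Serpina3n lies at chr12:104406608-104406707 on the plus strand and Serpina3c at chr12:104153873-104153972 on the minus strand.
Serpina3n: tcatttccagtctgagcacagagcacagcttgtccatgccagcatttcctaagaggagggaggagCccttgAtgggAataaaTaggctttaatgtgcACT
Serpina3c: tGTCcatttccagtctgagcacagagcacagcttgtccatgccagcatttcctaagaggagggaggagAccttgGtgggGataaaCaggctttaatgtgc

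The last pair, Serpine2 and Serpinh1, are the genes that rose and held GC boxes. Capitals mark the GC box GGGCGG, the core of the element that Sp1 proteins bind. Serpine2 lies at chr1:79858666-79858765 and Serpinh1 at chr7:99353240-99353339, both on the minus strand.
Serpine2: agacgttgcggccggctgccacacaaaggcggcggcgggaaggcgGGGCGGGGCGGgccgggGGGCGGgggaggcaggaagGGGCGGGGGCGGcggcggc
Serpinh1: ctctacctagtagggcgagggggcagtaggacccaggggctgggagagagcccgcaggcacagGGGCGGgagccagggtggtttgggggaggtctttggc

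Over the 250 bases before the start, searched on both strands, Serpine2 held 6 GC boxes and Serpinh1 held 1. The motif was in 32.9% of all 27025 promoters, in 7 of the 47 Serpin promoters and in 2 of the 6 of genes that rose. CCAAT was in 34.5% of all promoters, in 15 of 47 Serpin promoters and, of the 6, in Serpinf1 only, with 3 matches. TATAAA was in 13.0% of all promoters and the AP-1 site TGANTCA in 6.87%, and the Serpin promoters held them in 13 and 11 of 47. Neither stood in any of the 6. The STAT site TTCNNNGAA was in 7.18% of all promoters, 5 of 47 Serpin promoters and 0 of the 6. The E-box CACGTG, the SMAD palindrome GTCTAGAC and the heat shock element were in 6.05%, 0.174% and 0.4% of all promoters and in 0 of 47. Such matches describe these letters and windows only. Matches may overlap one another, as GC boxes do in Serpine2, and each was counted.

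Serpine2, protease nexin-1, inhibits thrombin as well as the plasminogen activators. Its arrays read 8.32, 8.16 and 8.30 in D10, 7.70, 7.99 and 7.94 in D5, and 7.02, 7.05 and 7.08 in ESC. The groups did not overlap. Means were 8.24 ± 0.10 in D10 (SD, n = 2), 7.88 ± 0.15 in D5 (SD, n = 3) and 7.05 ± 0.03 in ESC (SD, n = 3). The difference from ESC was 1.19 in D10 (SE 0.11, 2.28-fold, limma adjusted p = 0.000412) and 0.83 in D5 (SE 0.10, 1.78-fold, limma adjusted p = 0.0029). Between D10 and D5 the difference of 0.36 did not pass (limma adjusted p = 0.272), with a 95% interval of 0.11 to 0.61. Serpine3, of the same clade, stayed under the background level.

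**Figure D2:**
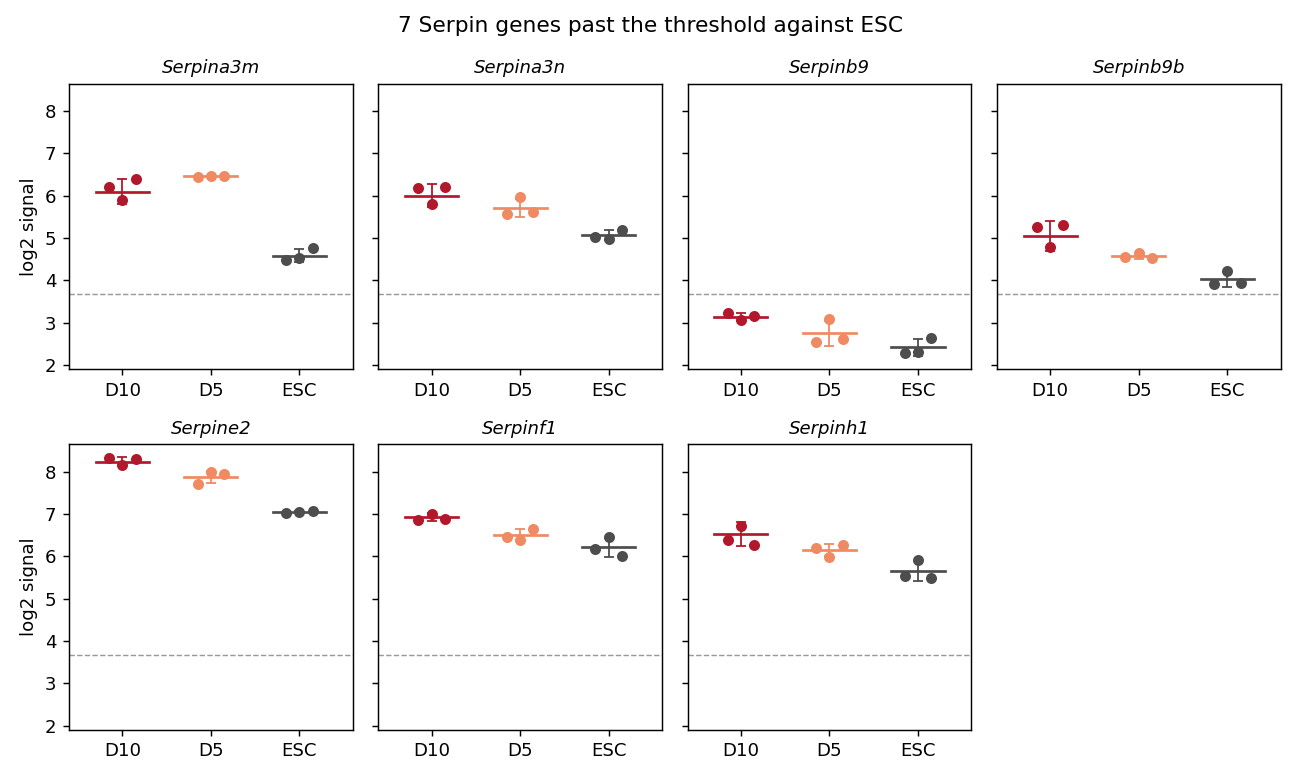
Log2 signal on each array of 7 Serpin genes that rose in D10, by group in the order D10, D5 and ESC; lines are means, bars are SD and the dashed line is the background level of 3.68. Serpine2 steps down from D10 through D5 to ESC without overlap, Serpina3m is highest in D5, and Serpinb9 stays under the background level in every array.

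In clade a both genes that rose were Serpina3 copies, mouse relatives of the single human alpha-1-antichymotrypsin gene. Serpina3m, the clade a gene with the highest mean, read 6.21, 5.89 and 6.40 in D10, 6.45, 6.48 and 6.45 in D5, and 4.47, 4.52 and 4.75 in ESC. Both re-derived lines were far above ESC, and D5 was above D10 on every array. Its mean was 6.10 ± 0.29 in D10 (SD, n = 2), 6.46 ± 0.01 in D5 (SD, n = 3) and 4.58 ± 0.15 in ESC (SD, n = 3). The difference from ESC was 1.52 in D10 (SE 0.14, 2.86-fold, limma adjusted p = 0.000409) and 1.88 in D5 (SE 0.12, 3.67-fold, limma adjusted p = 0.000287). Of the 3 genes that rose in D5, this was the one with the largest difference. The difference of -0.36 between D10 and D5 did not pass the threshold (limma adjusted p = 0.409), with a 95% interval of -0.68 to -0.05.

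Serpina3n, whose mouse protein inhibits granzyme B and neutrophil proteases, read 6.19, 5.81 and 6.21 in D10, 5.56, 5.96 and 5.62 in D5, and 5.03, 4.97 and 5.20 in ESC. D10 and D5 overlapped each other, and neither overlapped ESC. D10 exceeded ESC by 0.94 (SE 0.16, 1.91-fold, limma adjusted p = 0.00842) and D5 exceeded ESC by 0.65 (SE 0.14, 1.56-fold, limma adjusted p = 0.0452). The D5 call did not hold when any 1 array of D5 or ESC was left out (adjusted p = 0.0786 to 0.14). The other Serpina3 genes measured were Serpina3a, Serpina3b, Serpina3c, Serpina3f, Serpina3h and Serpina3k. None of these 6 passed the threshold, and only Serpina3h, whose symbol the RefSeq gene table lists as a transcribed pseudogene, had a mean above the background level, at 4.55 in D10, 4.51 in D5 and 4.61 in ESC.

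Among the alpha-1-antitrypsin copies, only Serpina1e had a mean above the background level. It is named here after its values were seen, since it was the sole gene of the family that passed as lower under any setting tried. It averaged 3.76 in D10, 4.14 in D5 and 4.21 in ESC, and the difference between D10 and ESC was -0.45 (limma adjusted p = 0.0743). It passed in limma when the 9 arrays were counted separately (adjusted p = 0.0261) and without D5 replicate 3 (0.0495). Its D10 mean lay just over the background level of 3.68.

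In clade b, both genes that rose in D10 belong to the Serpinb9 cluster, whose best known member inhibits granzyme B inside cells that make it or meet it. Serpinb9b read 5.27, 4.79 and 5.31 in D10, 4.54, 4.65 and 4.54 in D5, and 3.92, 4.22 and 3.93 in ESC. The groups did not overlap, although D10 replicate 2 stood well below the other D10 arrays. The mean was 5.04 ± 0.35 in D10 (SD, n = 2), 4.58 ± 0.06 in D5 (SD, n = 3) and 4.03 ± 0.17 in ESC (SD, n = 3). D10 exceeded ESC by 1.02 (SE 0.16, 2.03-fold, limma adjusted p = 0.0054). D5 exceeded ESC by 0.55, which did not pass (limma adjusted p = 0.0739), with a 95% interval of 0.23 to 0.87.

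Serpinb9 itself read 3.24, 3.07 and 3.16 in D10, 2.54, 3.09 and 2.62 in D5, and 2.29, 2.31 and 2.65 in ESC. Every array was under the background level, so no fold is given, although the difference of 0.72 between D10 and ESC passed (limma adjusted p = 0.0430). It was lost with array weights (adjusted p = 0.0582) and without ESC replicate 1 (0.123), ESC replicate 2 (0.121), D5 replicate 1 (0.0517), D5 replicate 3 (0.06) or D10 replicate 2 (0.139). Serpinb9c, Serpinb9d, Serpinb9e, Serpinb9f and Serpinb9g were at or under background and did not pass.

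The clade b gene with the highest mean was Serpinb6a, whose human counterpart inhibits cathepsin G inside cells. It read 8.09, 7.78 and 8.17 in D10, 7.79, 7.79 and 7.53 in D5, and 7.58, 7.59 and 7.59 in ESC. All D10 arrays were above all ESC arrays, but the difference of 0.37 did not pass (limma adjusted p = 0.127). With the 9 arrays counted separately it did (adjusted p = 0.0348). Serpinb2, plasminogen activator inhibitor type 2, averaged 4.34 in D10, 4.14 in D5 and 3.97 in ESC, and its difference of 0.36 between D10 and ESC did not pass either (limma adjusted p = 0.219).

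Beside Serpine2, the genes of clades c to i that rose in D10 were Serpinh1 and Serpinf1, which encode proteins that inhibit no protease. Serpinh1, also called HSP47, is a chaperone of procollagen in the endoplasmic reticulum. It read 6.39, 6.73 and 6.27 in D10, 6.19, 5.99 and 6.27 in D5, and 5.55, 5.93 and 5.50 in ESC. D10 and D5 touched at 6.27, and both lay above ESC. D10 exceeded ESC by 0.87 (SE 0.17, 1.83-fold, limma adjusted p = 0.0155), while the difference of 0.49 between D5 and ESC did not pass (limma adjusted p = 0.134, 95% interval 0.15 to 0.84).

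Serpinf1 encodes pigment epithelium-derived factor, a secreted protein known for restraining vessel growth. It read 6.86, 7.0 and 6.87 in D10, 6.46, 6.39 and 6.66 in D5, and 6.18, 6.45 and 6.01 in ESC. D10 stood clear of both other groups, and D5 and ESC overlapped. D10 exceeded ESC by 0.72 (SE 0.14, 1.65-fold, limma adjusted p = 0.0166), and D5 exceeded ESC by 0.29 without passing (limma adjusted p = 0.299). The D10 calls of both genes rested on few arrays. Without D10 replicate 2 the adjusted p was 0.119 for Serpinh1 and 0.116 for Serpinf1, without ESC replicate 1 it was 0.0548 and 0.0554, and without ESC replicate 3 it was 0.0567 and 0.0501. With the spread taken from D10 and ESC alone it was 0.0576 for Serpinh1 and 0.0535 for Serpinf1.

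The other reported genes of clades c to i did not pass in any comparison. Serping1, the C1 inhibitor of the complement and contact systems, averaged 5.34 in D10, 5.17 in D5 and 5.44 in ESC. Serpini1, neuroserpin, averaged 4.39 in D10, 4.42 in D5 and 4.51 in ESC. Serpind1, heparin cofactor II, averaged 4.43 in D10, 4.34 in D5 and 4.46 in ESC, and Serpinf2, the plasmin inhibitor alpha-2-antiplasmin, averaged 4.53 in D10, 4.49 in D5 and 4.40 in ESC. Serpinc1 was under background in each group, at 3.03 in D10, 3.02 in D5 and 3.24 in ESC. Their differences between D10 and ESC were -0.10 for Serping1, -0.12 for Serpini1, -0.03 for Serpind1, 0.13 for Serpinf2 and -0.20 for Serpinc1.

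The authors' deposited table of 461 selected probe sets includes Serpine2, Serpina3m, Serpina3n and Serpinb9b. In the authors' deposited table the ratio of D10 to ESC was 3.02 for Serpina3m, 2.32 for Serpine2, 2.16 for Serpinb9b and 2.01 for Serpina3n. That list was selected from these same arrays and is no independent evidence.

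The proteases that serpins meet were measured in the same arrays. Of 38 target proteases, 21 had a mean above the background level. In D10 against ESC 8 rose and 1 fell, with a median of -0.04 over the list, and in D5 against ESC 6 rose and 0 fell, with a median of -0.06. At an unadjusted p under 0.05, limma had 9 higher and 5 lower in D10, and 8 higher and 4 lower in D5. Over all probe sets, 5.32% rose and 3.33% fell in D10, and 2.36% rose and 1.5% fell in D5. The unadjusted shares were 10.4% higher and 10.7% lower in D10, and 8.31% and 8.25% in D5. The counts of the lists that follow stand beside these same shares. Plau, urokinase, a plasminogen activator that Serpine2 inhibits, read 7.91, 7.73 and 7.89 in D10, 7.13, 7.34 and 7.20 in D5, and 5.95, 6.25 and 5.93 in ESC. Its groups did not overlap, with D10 above ESC by 1.77 (3.41-fold, limma adjusted p = 0.000145) and D5 above ESC by 1.18 (limma adjusted p = 0.0011). Plat, tissue plasminogen activator, averaged 6.01 in D10, 5.55 in D5 and 4.83 in ESC and rose in both lines (limma adjusted p = 0.000837 for D10 and 0.0118 for D5). Ctsb, the lysosomal protease cathepsin B, averaged 8.43 in D10, 7.99 in D5 and 7.39 in ESC and rose likewise (limma adjusted p = 0.000877 for D10 and 0.0161 for D5). The D5 calls were lost for Plat without D5 replicate 1 (adjusted p = 0.053) and for Ctsb without ESC replicate 2 (0.0604) or ESC replicate 3 (0.0715). The 1 gene that fell in D10 was F2, prothrombin, at 3.81 in D10, 4.05 in D5 and 4.29 in ESC (limma adjusted p = 0.0459). It is named after its values were seen, and its call was lost without any 1 array of ESC or D5, or without D10 replicate 2 (adjusted p = 0.0554 to 0.12). Both plasminogen activators and Serpine2 thus rose in D10 and D5. D10 against D5 gave 0 calls in this list, beside 0.194% of all probe sets that rose and 0.0208% that fell. At an unadjusted p under 0.05 limma had 7 higher and 0 lower there, beside 5.58% and 4.17% of all probe sets.

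Receptors that clear serpin complexes, and the cofactors that steer serpins, were the next list. Of 18 genes, 17 were above background. In D10 against ESC 11 rose and 0 fell, with a median of 0.49, and in D5 against ESC 6 rose and 1 fell, with a median of 0.32 (2 to 3 rose without ESC replicate 1, D5 replicate 1 or D5 replicate 2). The one that fell in D5, Sorl1, was named after its values were seen and lost its call without any 1 array of D5 or ESC. At an unadjusted p under 0.05, limma had 13 of the 18 higher and 1 lower in D10 against ESC. In D5 against ESC it had 10 higher and 1 lower. In D10 against D5 it had 8 higher and 0 lower, beside 5.58% and 4.17% of all probe sets. Lrp1, the receptor that takes up complexes of serpins with their proteases, averaged 8.28 in D10, 7.77 in D5 and 6.98 in ESC. It rose by 1.31 in D10 (2.47-fold, limma adjusted p = 0.00018) and by 0.79 in D5 (limma adjusted p = 0.0024). Plaur, the urokinase receptor, averaged 6.67 in D10, 6.08 in D5 and 5.60 in ESC and rose in D10 (limma adjusted p = 0.00341) but did not pass in D5 (limma adjusted p = 0.104). Thbd, thrombomodulin, which turns thrombin toward protein C, averaged 6.93 in D10, 5.75 in D5 and 5.45 in ESC. It rose by 1.48 in D10 against ESC (limma adjusted p = 0.000648) and by 1.18 in D10 against D5 (limma adjusted p = 0.0340), and was the single gene of this list past the threshold between the re-derived lines. That call was lost without any 1 array of D5 or ESC and without D10 replicate 2 (adjusted p = 0.0548 to 0.171).

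**Figure D3:**
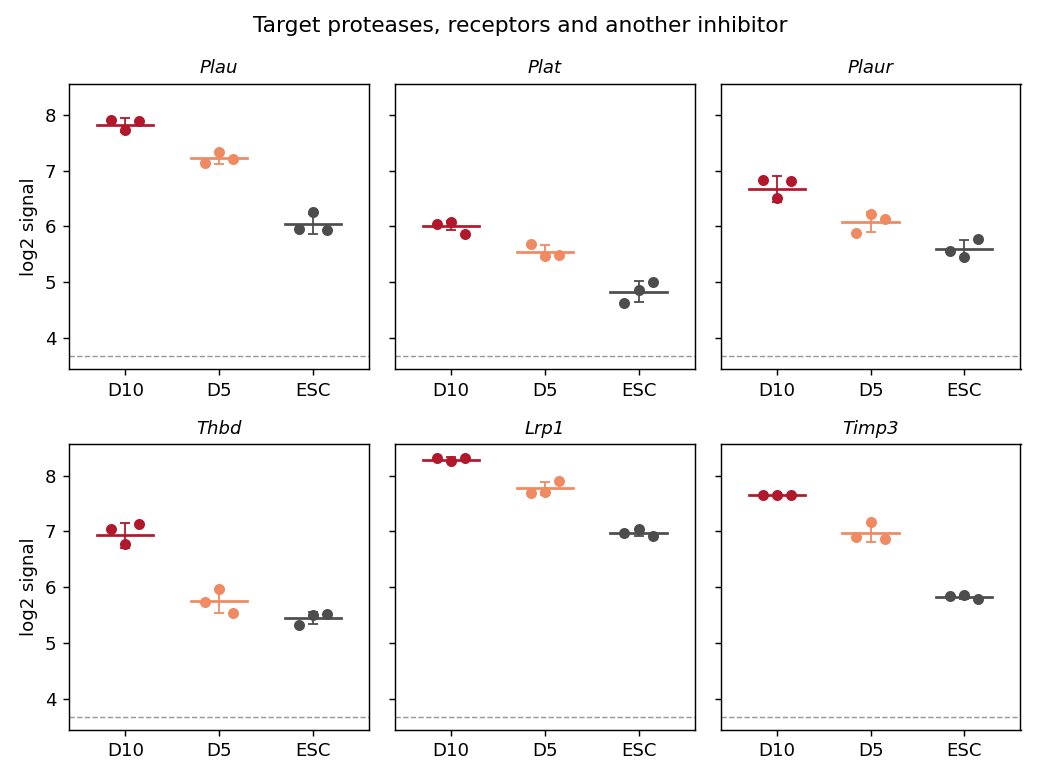
Log2 signal of proteases, receptors and another inhibitor by group, in the order D10, D5 and ESC. Points are arrays, lines are means and bars are SD; the dashed line is the background level of 3.68. Plau, Plat, Plaur, Lrp1 and Timp3 step down from D10 through D5 to ESC, and Thbd is highest in D10, with D5 close to ESC.

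Serpinh1 works on procollagen, and 10 of the 20 genes of collagen chains and collagen processing rose in D10 against ESC, with 0 lower and a median of 0.43. In D5 against ESC 8 rose and 0 fell, with a median of 0.26, and 5 rose without ESC replicate 1, ESC replicate 3, D5 replicate 1 or D5 replicate 3. None was lower at an unadjusted p under 0.05 in limma, where 13 were higher in D10 and 10 in D5. All collagen chains of the list except Col5a2 rose in both contrasts. Of the processing genes, Fkbp10 rose in both, and Plod3 and Pdia3 rose in D10 only. P4ha1, P4ha2, P4hb, Plod1, Plod2, Crtap, Lepre1, Ppib and Hspa5 passed in neither. Col3a1 averaged 8.18 in D10, 7.61 in D5 and 6.51 in ESC (D10 against ESC 3.17-fold, limma adjusted p = 5.25e-05). Col1a2 averaged 9.87 in D10, 9.10 in D5 and 8.21 in ESC, and was the 1 gene of the list that also rose in D10 against D5, by 0.77 (limma adjusted p = 0.0457). That call was lost without any 1 array other than D10 replicate 3 (adjusted p = 0.0503 to 0.212). Col1a1 averaged 10.31 in D10, 9.80 in D5 and 8.86 in ESC (D10 against ESC 2.74-fold, limma adjusted p = 0.000382). At an unadjusted p under 0.05, limma had 13 of the 20 genes higher and 0 lower in D10 against D5. The shares of all probe sets there were 5.58% and 4.17%.

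Inhibitors of other families gave a mixed picture. Of 20 such genes, 14 were above background. In D10 against ESC 6 rose and 2 fell (median 0.08), and in D5 against ESC 3 rose and 1 fell (median 0.05). D10 against D5 gave 0 calls. At an unadjusted p under 0.05 limma had 6 higher and 1 lower there, beside 5.58% and 4.17% of all probe sets. Timp3, a matrix-bound metalloprotease inhibitor, averaged 7.65 in D10, 6.98 in D5 and 5.83 in ESC (D10 against ESC 3.53-fold, limma adjusted p = 8.31e-05). Timp2, of the same family, averaged 8.41 in D10, 7.94 in D5 and 7.10 in ESC (D10 against ESC 2.49-fold, limma adjusted p = 0.000655). A2m, the broad protease trap alpha-2-macroglobulin, went the other way, at 3.53 in D10 and 3.57 in D5, both under the background level, and 4.74 in ESC (limma adjusted p = 0.0027 for D10 and 0.0043 for D5).

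**Figure D4:**
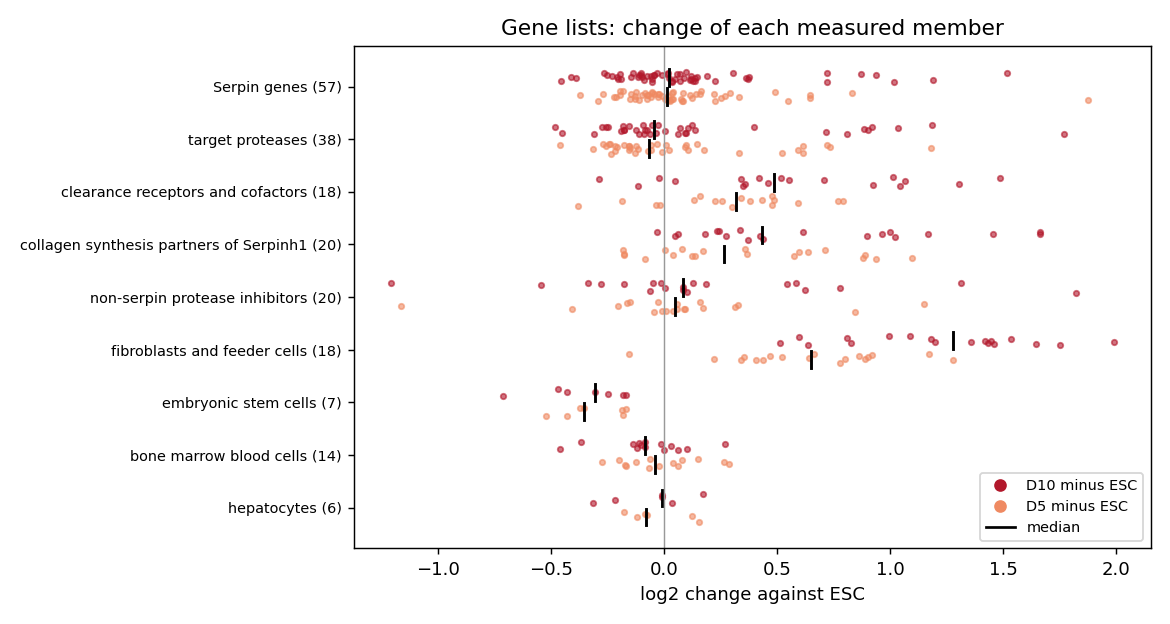
Difference in log2 signal of each gene of the lists for D10 minus ESC and D5 minus ESC, with list medians. Fibroblast and feeder cell markers sit highest, at medians of 1.28 in D10 and 0.65 in D5, and target proteases have medians of -0.04 and -0.06.

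Of the 7 embryonic stem cell markers, 3 fell in D10 and 4 in D5 against ESC and 0 rose in either, with summed signals of 7466 to 7687 in D10, 7742 to 8271 in D5 and 10167 to 10639 in ESC. In limma 0 of them were higher in D10 or D5 at an unadjusted p under 0.05. Bone marrow blood cell markers gave 0 calls among 14 genes in both contrasts, with 2 above background (Hba-a1 and Camp), and in limma 1 was lower in D10 at an unadjusted p under 0.05. The 6 hepatocyte markers, of a main source of secreted serpins, all had a mean over the arrays under the background level and gave 0 calls, with 1 lower in D10 at an unadjusted p under 0.05. Trophoblast markers rose in D10 for 5 of 11 genes and in D5 for 0 of 11, where 1 was higher at an unadjusted p under 0.05 in limma. Their summed signal was 455 to 466 in D10, 340 to 355 in D5 and 329 to 348 in ESC. Endoderm markers rose in 2 of 14 genes in D10 and 1 of 14 in D5, but the medians over the list were -0.10 in D10 and -0.01 in D5. Their summed signals were 329.6 to 366 in D10, 312 to 343 in D5 and 301 to 317 in ESC. The part of trophoblast or endoderm cells in these results was not tested. Of 6 endothelial markers 2 rose and 1 fell in D10, and 1 fell in D5.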

How the data were processed

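Total RNA was measured on 9 Affymetrix whole-transcript arrays, labelled as biological replicates. MAS5 is named, without a version, per the submitters' processing notes; the sources used here do not give the normalization between arrays. The authors deposited log2 signals of 28853 probe sets. A short table by the authors gives linear intensity means, ratios (fold) and a p-value for each comparison of 461 probe sets; the log2 of its intensities matched the log2 table within 1.9e-05, and it was described, not used for tests. Step-up p-values deposited by the authors were not used.

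Groups came from the sample titles. Differences were fitted with limma 3.58.1 in R 4.3.3 (lmFit, eBayes) on the log2 values of all probe sets, with a mean per group and D10 replicates 1 and 3 averaged (8 samples, 3.56 prior and 5 residual degrees of freedom). Two-sided p-values were adjusted by Benjamini and Hochberg's method over the whole table in each comparison, with 0.05 as the threshold; the fit was tested on simulated data. No build is named in the files, so gene coordinates are given for RefSeq promoters only. The members and lists were chosen with earlier results of these data known. Of the 58 Serpin genes, 1 is not reported here. Named were every other Serpin gene past the threshold, the one with the highest mean in each clade, Serpina3m, and up to 3 genes per list with the largest difference past the threshold in D10 against ESC; other genes were named after their values were seen, or as members without a call. Alternatives were quantile normalization, median centring, an intensity trend with robust estimation, array weights, leaving out the dimmest 30% of probe sets, the mean of all probe sets of a gene, not counting members at background, only the groups compared, 9 separate arrays, a replicate block, and each array left out. Precision is limited by the number of arrays, which have no read depth.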

Additional observations from a re-analysis of the deposited data

Results flagged for a closer look

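Outside the cell type markers, the differences from ESC in D10 and in D5 themselves differed for 2 genes of the lists, as tested in limma by D10 against D5. Of the fibroblast and feeder cell markers, 3 passed as well, namely Lox, Pdgfra and Thy1. For Thbd the difference between D10 and D5 was 1.18 on the log2 scale, with D10 at 6.93, D5 at 5.75 and ESC at 5.45. For Col1a2 it was 0.77, with D10 at 9.87, D5 at 9.10 and ESC at 8.21. Both calls were lost without D10 replicate 2, and without any 1 array of D5 or ESC. With only the groups compared, the limma adjusted p was 0.224 for Thbd and 0.174 for Col1a2. The Col1a2 call was also lost with quantile normalization (adjusted p = 0.0519) and with array weights (0.0523).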

How the results depend on the processing

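No call among the 57 genes changed direction under the 18 alternatives. Serpine2 and Serpina3m passed against ESC in D10 and D5 under all of them, as did Serpina3n and Serpinb9b in D10. With 1 array left out, genes higher in D10 against ESC ranged from 4 (without ESC replicate 1 or D10 replicate 2) to 7, those lower from 0 to 1, and those higher in D5 against ESC from 2 to 4. Without D10 replicate 2, D10 is 1 sample and was taken to vary like the others. With only the groups compared, 5 were higher in D10 against ESC. None of the 57 passed in D10 against D5 in limma under any alternative, against 3 higher and 3 lower at an unadjusted p under 0.05 in the reported fit. With the dimmest 30% left out, Serpinb9 was not tested and 6 were higher in D10 against ESC. With 9 arrays counted separately, 8 were higher and 1 was lower in D10 against ESC. Serpinb9b in D5 passed with the dimmest 30% left out (adjusted p = 0.0484), with array weights (0.0468) and with only the groups compared (0.0423).

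Replicate numbers did not pair the samples: deviations of same-numbered samples correlated at -0.369 to 0.275 over 9 pairs, and those of other pairs at -0.336 to 0.309. A fit with the replicate block, which also counted the 9 arrays separately, gave 7 higher and 1 lower in D10 against ESC, 2 higher and 0 lower in D5 against ESC, and 0 higher and 0 lower in D10 against D5. The lower one was Serpina1e (limma adjusted p = 0.0299). It was also called with the 9 arrays counted separately and no block (0.0261), and without D5 replicate 3 (0.0495).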
